A study of Mus musculus with 36 samples.

Results

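MHC class I and class II molecules present peptides to T cells, and 10 genes of this pathway were described in the optic nerve and retina of C57BL/6 mice. The genes were chosen by name: B2m, H2-K1, Tap1, Tap2 and Tapbp for class I, and Cd74, H2-Aa, H2-Ab1, H2-Eb1 and Ciita for class II, 10 of the 55487 genes of the count table. RNA-seq was measured in 36 libraries, 12 each from the unmyelinated optic nerve (UON), the myelinated optic nerve (MON) and the whole retina. The groups were naïve mice, then crush of 1 optic nerve sampled 3 days (3 D) or 2 weeks (2 W) later, and the glaucoma model, in which beads injected into the front of 1 eye raise its pressure, sampled after 3 D, 2 W or 6 weeks (6 W). All were young adult mice for which no transgene is named, and the 3 tissues of a group came from the same mice. In each tissue a group was 1 female and 1 male library, each of RNA pooled within the sex (n = 2 pools per group). Below, the female pool is given first, and p-values measure only the spread between these pools. Where pools are said to lie above others or not to overlap, that is a description and no test. The share of all genes without overlap was not counted, and with 2 pools per group it is common by chance.

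MHC class I is made by nearly all nucleated cells. Its heavy chain, here H2-K1, pairs with beta-2 microglobulin (B2m), and is loaded with peptides that the transporter Tap1-Tap2 pumps into the endoplasmic reticulum, where tapasin (Tapbp) holds the empty molecule at the transporter. MHC class II is made mainly by dendritic cells, macrophages, B cells and activated microglia. Its alpha and beta chains (H2-Aa with H2-Ab1, and H2-Eb1 as the beta chain of the second class II molecule) are guided by the invariant chain Cd74, and their transcription needs the coactivator Ciita. Interferon gamma is a classical inducer of both classes. C57BL/6 mice carry the H-2b haplotype and lack a functional H2-Ea chain, the partner of H2-Eb1, and H2-Ea was listed at 0 FPKM in every library but a pair from the UON, at 0.0455 and 0.00276.

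On GRCm38, 7 of the 10 genes lie on chromosome 17, from Tapbp (chr17:33915899-33929292) through H2-K1, Tap1, Tap2, H2-Ab1 and H2-Aa to H2-Eb1 (chr17:34305867-34316674). B2m (chr2:122147686-122153083), Cd74 and Ciita (chr16:10480059-10528418) lie elsewhere.

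The promoters of class I and class II genes share a conserved module, and it is shown here because it links both classes. The 150 bases before the start of 5 members follow, from RefSeq on GRCm38.p6, 5′ to 3′ on the gene's own strand. Capitals mark the CCAAT box, which reads ATTGG on the other strand. They also mark the motif TGACG, which reads CGTCA on the other strand. They also mark a pair of GAAA with 2 bases between them, the core of an interferon-stimulated response element, on either strand, and a strict kappa B core, GGGA then any base then TTTCC, on either strand. Other kappa B variants were not searched and would stand in lower case. RefSeq promoter entries were matched for 6 of the 10 members.
B2m (chr2:122147536-122147685, plus strand): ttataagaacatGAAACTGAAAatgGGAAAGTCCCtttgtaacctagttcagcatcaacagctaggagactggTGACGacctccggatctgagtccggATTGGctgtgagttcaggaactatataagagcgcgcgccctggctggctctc
H2-K1 (chr17:34000348-34000497, minus strand): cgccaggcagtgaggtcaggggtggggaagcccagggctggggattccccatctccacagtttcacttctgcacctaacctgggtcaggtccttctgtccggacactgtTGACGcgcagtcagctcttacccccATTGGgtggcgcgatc
H2-Aa (chr17:34287824-34287973, minus strand): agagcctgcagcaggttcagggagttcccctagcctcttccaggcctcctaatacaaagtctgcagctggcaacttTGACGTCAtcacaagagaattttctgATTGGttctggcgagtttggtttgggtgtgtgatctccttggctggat
H2-Eb1 (chr17:34305717-34305866, plus strand): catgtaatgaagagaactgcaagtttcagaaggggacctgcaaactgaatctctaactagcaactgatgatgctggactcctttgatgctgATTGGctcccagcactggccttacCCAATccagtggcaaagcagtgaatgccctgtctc
Tap1 (chr17:34187403-34187552, plus strand): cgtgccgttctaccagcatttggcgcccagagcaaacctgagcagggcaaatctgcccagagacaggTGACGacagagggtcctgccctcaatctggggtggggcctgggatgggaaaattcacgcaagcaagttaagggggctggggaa

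TGACG was followed by ATTGG on the same strand, with starts 25 bases apart in B2m and H2-K1 and 26 apart in H2-Aa. That spacing, 25 or 26 bases, was looked for after the sequences were read, and it was found on the reading strand in 31 of 32851 promoter windows of 300 bases, 0.0944% of them. Among other listed genes of the pathway with a promoter entry, only H2-D1 and H2-M3 had it, at 25 bases. It was not found in H2-Eb1, Tap1 or Tapbp, the other members with an entry. H2-Eb1 and Tapbp held no TGACG in the window, and Tap1 held no ATTGG. The bases of Tapbp are not printed. Singly the motifs are common: CCAAT or its complement was in 37.4% of all windows and TGACG or its complement in 20.8%. The interferon-stimulated response element core was in 3.44% of windows and the strict kappa B core in 0.411%, and B2m carried both, 139 and 126 bases before its start. A match is only a stretch of letters and no measurement of binding.

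Libraries held 16158723 to 78054205 estimated counts. Photoreceptor markers summed to 25042 to 32275 FPKM in the 12 retinal libraries and to at most 129 in the nerve. Oligodendrocyte markers were lower in naïve UON than in MON for 8 of 8 genes called, so the tissues carried their defining markers. Oligodendrocyte sums still ran from 1268 to 18015 FPKM in the UON, against 20144 to 57995 in the MON. Markers of pigment epithelium and fibroblasts, cells that dissection could carry along, summed to 372 to 1189 FPKM in the UON. They summed to 82.1 to 334 in the MON and 30.1 to 84.8 in the retina. In naïve UON over MON the largest called change among them was Col1a2 at 3.53 ± 0.29, and their part in the member levels was not tested. Bulk RNA cannot tell fewer cells of a type from less RNA per cell. The male UON pool at 2 W after crush stood apart, with Mbp, the myelin basic protein gene, at 794 FPKM where the other UON libraries held 3289 or more.

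In naïve tissue all members but Ciita were lowest in the retina. B2m was at 384 and 533 FPKM in the UON, 245 and 312 in the MON, and 28.1 and 29.3 in the retina. Cd74 was at 93.7 and 129 FPKM in the UON, 24.8 and 26.9 in the MON, and 1.64 and 0.709 in the retina. H2-Ab1 was at 56.97 and 65.8 FPKM in the UON, 17.7 and 22.5 in the MON, and 2.34 and 2.45 in the retina. For these 3 genes no library of one tissue overlapped a library of another.

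**Figure D1:**
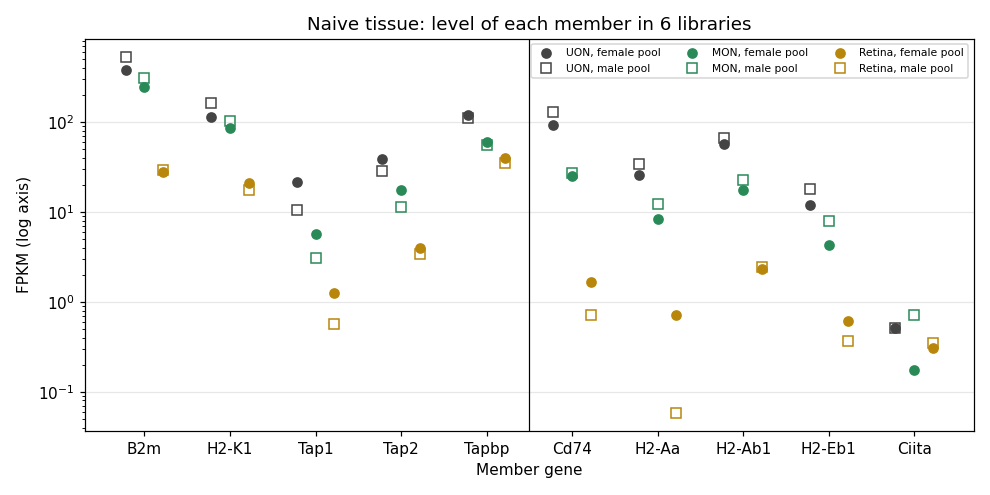
Level of the 10 members in the 6 naïve libraries, as FPKM on a log axis, with the female pool as a filled circle and the male pool as an open square. Class I genes stand left of the line and class II genes right of it, and Cd74 goes from 93.7 and 129 FPKM in the UON to 1.64 and 0.709 in the retina.

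Against the retina, 9 of 10 members were called higher in the UON, where 18.2% of all genes tested were called higher, and 9 of 10 in the MON, where 16.7% were. A call is an adjusted p under 0.05 with a log2 fold change beyond 1 in edgeR's quasi-likelihood test. Tapbp lost its MON call without the male retinal pool (1.08, edgeR adjusted p = 0.0747). The member not called in either was Ciita, at 0.506 and 0.507 FPKM in the UON, 0.174 and 0.708 in the MON, and 0.306 and 0.346 in the retina, and its UON to retina adjusted p was 0.285. Among class I, the UON to retina log2 fold change ran from 2.09 ± 0.21 (SE) for Tapbp to 4.95 ± 0.33 for Tap1, with B2m at 4.37 ± 0.25. Among class II it was 5.05 ± 0.24 for H2-Ab1, 6.16 ± 0.52 for H2-Eb1, 6.44 ± 0.68 for H2-Aa and 7.06 ± 0.54 for Cd74. The class II median was 6.16, the class I median 3.62 and the median of all genes -0.17. All 16 microglial markers were also called higher in the UON and in the MON than in the retina, with summed levels of 805 and 646 FPKM in the naïve UON, 1006 and 1345 in the MON, and 49.98 and 45.5 in the retina, and their part in these differences was not tested.

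Between the nerve regions the differences were smaller, and 4 of 10 members were called higher in the UON, where 4.83% of all genes were. Cd74 was 4.15-fold higher in the UON (log2 fold change 2.05 ± 0.42, edgeR adjusted p = 0.0257), Tap1 3.04-fold (1.61 ± 0.29, 0.0159), H2-Ab1 2.92-fold (1.54 ± 0.21, 0.00537) and Tap2 2.27-fold (1.18 ± 0.22, 0.0172). Tapbp had an adjusted p of 0.0322 but a log2 fold change of 0.94 ± 0.21, short of the fold limit. B2m at 0.65 ± 0.22, H2-Aa at 1.49 ± 0.53 and H2-Eb1 at 1.47 ± 0.41 were not called, although in each the UON pools lay above the MON pools. Leaving out 1 naïve library changed the number called to between 2 and 5. The call of Tap1 was lost without the female UON pool (log2 fold change 1.27, edgeR adjusted p = 0.108). That of Tap2 was lost without the male UON pool (1.09) or the male MON pool (0.97). That of Cd74 was lost without the male UON pool (1.39), the female MON pool (2.00) or the male MON pool (2.18). H2-Ab1 kept its call in all 4 of these fits.

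Other genes of the class I pathway shared the direction, with 19 of 21 positive and 5 called higher in the UON (median log2 fold change 0.98 against -0.06 for all genes). They included Mr1, which presents vitamin metabolites, at 2.03 ± 0.37, H2-T22 at 1.46 ± 0.34 and Tapbpl, a relative of tapasin, at 1.41 ± 0.26. Of the 19 class II pathway genes tested, 0 were called higher and 1 lower, the ubiquitin ligase Marchf1 at -1.67 ± 0.29. Among the 18 interferon gamma axis genes tested, 6 were called higher in the UON, led by the guanylate-binding protein Gbp4 at 2.80 ± 0.44. Of the type I interferon-stimulated genes 5 of 18 were called higher, led by Ifi44 at 3.27 ± 0.74. Of the microglial markers 1 of 16 was positive, Cx3cr1, called at 2.60 ± 0.60, and Siglech was called lower at -1.29 ± 0.29. Border macrophage markers were positive for 10 of 10 with 0 called, and summed to 25.01 and 35.5 FPKM in the UON against 6.82 and 10.4 in the MON. Of the dendritic cell markers Flt3 was called higher at 4.39 ± 0.75 and Batf3 lower at -2.78 ± 0.64, and the part of these cells was not tested.

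In the MON the H2-Aa to H2-Ab1 ratio of FPKM lay between 0.329 and 0.548 over 12 libraries, and in the UON between 0.319 and 1.42. The Cd74 to H2-Ab1 ratio lay between 0.995 and 1.93 in the MON and between 1.12 and 2.23 in the UON. The H2-Eb1 to H2-Ab1 ratio lay between 0.141 and 0.352 in the MON and between 0.208 and 0.446 in the UON. In naïve UON and MON, B2m led, followed by H2-K1, Tapbp, Cd74 and H2-Ab1. In naïve retina Tapbp led, at 39.7 and 34.7 FPKM, followed by B2m, H2-K1 and Tap2. TPM gave the same order in each tissue. H2-K1 reads can be shared with near-identical class I heavy chains such as H2-D1, so its level is less certain than the others.

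After optic nerve crush, H2-Ab1 and Cd74 reached in the MON their highest level of the 36 libraries. H2-Ab1 was at 17.7 and 22.5 FPKM in naïve MON, 60.1 and 296 at 3 D, and 191 and 72.1 at 2 W. Cd74 was at 24.8 and 26.9 FPKM in naïve MON, 64.4 and 295 at 3 D, and 202 and 104 at 2 W. H2-Aa was at 8.28 and 12.3 FPKM in naïve MON, 20.2 and 97.4 at 3 D, and 74.6 and 33.5 at 2 W. Every crush pool lay above both naïve pools for these 3 genes, yet the pools of a time point differed, the male pool being 4.58 to 4.93 times the female at 3 D and the female 1.94 to 2.64 times the male at 2 W.

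By edgeR 0 of 10 members were called in the MON at 3 D, where 4.26% of all genes were. At an unadjusted p under 0.05 in edgeR 5 members were higher, where 4195 of 19988 genes passed in either direction. DESeq2 also called 0 members, and 2386 of 19336 genes in all. The edgeR log2 fold changes were 2.99 ± 0.78 for H2-Ab1 (adjusted p = 0.0808), 2.64 ± 0.69 for Cd74 (adjusted p = 0.0813), 2.32 ± 0.69 for H2-Aa and 2.19 ± 0.79 for H2-Eb1. Without the female 3 D pool H2-Ab1 was at 4.13 and Cd74 at 3.74, where the lone male pool was assumed to vary like the other groups. Without the male 3 D pool H2-Ab1 was at 1.14 (edgeR adjusted p = 0.347) and Cd74 at 0.99 (0.417), so these changes rested on the male pool. Class I moved less, from 0.14 ± 0.27 for Tap2 to 0.84 ± 0.27 for Tap1.

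Markers of myeloid and other immune cells were read in the same MON libraries. Monocyte and neutrophil markers, a list with Fn1 and Vcan, which are also matrix genes of the nerve, summed to 18.03 and 31.3 FPKM in naïve MON. They summed to 221 and 562 at 3 D and to 117 and 59.1 at 2 W. At both times the higher pool was the same as for H2-Ab1, Cd74 and H2-Aa, which with 2 pools per group is only a description. Ccr2, the chemokine receptor of monocytes, was at 0.0903 and 0.0556 FPKM in naïve MON, 1.68 and 5.27 at 3 D, and 2.24 and 1.53 at 2 W, and rose at both times. Border macrophage markers summed to 6.82 and 10.4 FPKM in naïve MON and to 127 and 263 at 3 D. At 3 D 4 of 10 border macrophage, 4 of 10 monocyte and neutrophil and 2 of 16 microglial markers were called higher. Itgax (3.69 ± 0.66) among 10 dendritic cell markers and Cd22 (2.91 ± 0.42) among 8 B cell markers were called higher too. The dendritic cell and B cell lists summed to at most 39.7 and 13.2 FPKM in any MON library. Of the pathway lists, 1 of 21 class I genes, the lipid-presenting Cd1d1 at 3.46 ± 0.51, and 2 of 19 class II genes, Ifi30 at 3.04 ± 0.40 and Cd86 at 1.67 ± 0.35, were called higher. The part of these cells in the class II levels was not tested.

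At 2 W after crush the class I genes stood higher in the MON. B2m was at 1123 and 670.4 FPKM against 245 and 312 in naïve MON, and H2-K1 at 353 and 219 against 85.1 and 103. Tap1 was at 19.1 and 13.3 FPKM against 5.62 and 3.08. The pools of the 2 W group lay above both naïve pools in each.

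Tap1 rose and was the 1 member of 10 called at 2 W, where 2.72% of all genes were, by 1.62 ± 0.27 on the log2 scale (adjusted p = 0.0347 in edgeR). It was lost without the female naïve pool (adjusted p = 0.177) or the male one (adjusted p = 0.169). H2-K1 at 1.46 ± 0.31 had an adjusted p of 0.058, and B2m at 1.53 ± 0.35 one of 0.0673. In all, 9 of 10 members were higher at an unadjusted p under 0.05 in edgeR, where 3204 of 19988 genes passed in either direction. DESeq2 called B2m, H2-K1, Tap1 and Tapbp, and 1726 of 19336 genes in all. In edgeR without the male 2 W pool H2-Ab1 was at 3.63 and Cd74 at 3.23. Without the female 2 W pool H2-Ab1 was at 1.06 (edgeR adjusted p = 0.219) and Cd74 at 1.31 (0.0799). The class I median was 1.46 and the class II median 2.40, against 0.05 over all genes.

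Other genes of both pathways rose with Tap1 at 2 W. Of the class I pathway list 4 of 21 were called higher, among them the heavy chains H2-Q7 at 2.49 ± 0.46 and H2-M3 at 2.14 ± 0.39 and the immunoproteasome subunit Psmb9 at 1.56 ± 0.31. Of the class II pathway list 4 of 19 were, including the costimulatory Cd86 at 2.70 ± 0.36, the lysosomal reductase Ifi30 at 2.08 ± 0.39 and H2-DMb1, a chain of the peptide exchanger H2-DM, at 2.04 ± 0.38. Ifng itself was at 0 FPKM in both 2 W pools, and the part of interferon gamma in these levels was not tested. Microglial markers were called higher for 7 of 16, their sum going from 1006 and 1345 FPKM in naïve MON to 7012 and 3876. Itgax of the dendritic cell list (5.41 ± 0.72), Cd22 of the B cell list (3.48 ± 0.43) and Ms4a7 of the border macrophage list (7.18 ± 0.93) were called higher as well. Each was the 1 gene called in its list, and a single gene does not identify a cell type. The part of microglia and of these other cells was not tested.

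From 3 D to 2 W after crush 0 of 10 members were called in the MON, where 0.075% of all genes were. At an unadjusted p under 0.05 in edgeR 5 were higher, all of class I, where 2493 of 19988 genes passed in either direction. DESeq2 called 0 members, and 1060 of 17825 genes in all. The changes were 0.87 ± 0.34 for B2m and 0.82 ± 0.28 for Tapbp, and -0.33 ± 0.79 for H2-Ab1. Without the female 2 W pool H2-Ab1 and H2-Eb1 were at -1.64 and -1.58.

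**Figure D2:**
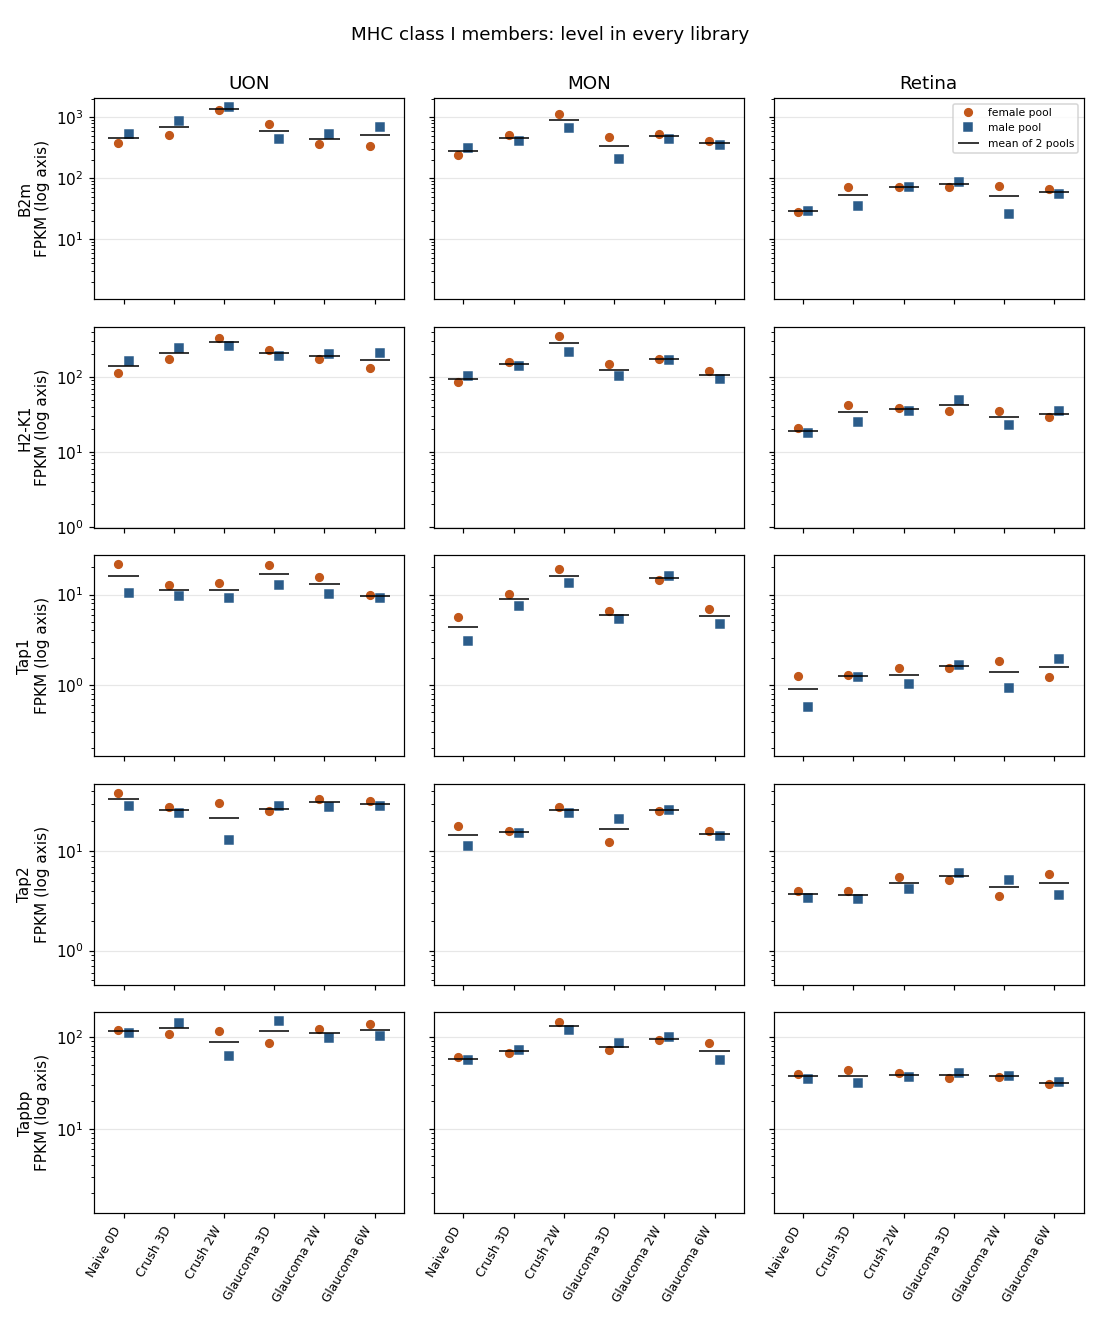
FPKM of the class I members on a log axis in every library, by tissue and group, with female pools as circles, male pools as squares and the mean of 2 pools as a line. B2m reaches 1322 and 1457 in the UON and 1123 and 670.4 in the MON at 2 W after crush.

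In the UON the class I heavy chain and its partner were highest at 2 W after crush. B2m was at 384 and 533 FPKM in naïve UON, 518 and 861 at 3 D, and 1322 and 1457 at 2 W. H2-K1 was at 115 and 163 FPKM in naïve UON, 174 and 242 at 3 D, and 336 and 256 at 2 W. Neither gene's 2 W pools overlapped the naïve pools.

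None of the 10 members was called in the UON at 3 D (0% of all genes called) or at 2 W (0.0281%). At 2 W the log2 fold change was 1.57 ± 0.33 for B2m (edgeR adjusted p = 0.378) and 1.07 ± 0.33 for H2-K1 (adjusted p = 0.49). These were the 2 members at an unadjusted p under 0.05, against 0 at 3 D. Over all genes 1980 of 21368 passed that limit in edgeR at 2 W and 657 of 21368 at 3 D. DESeq2 called B2m at 2 W, at 1.60 ± 0.37, and 515 of 19328 genes in all. At 3 D it called no member, and 210 of 20782 genes in all. The loading genes went the other way in sign, with Tap1 at -0.51 ± 0.32, Tap2 at -0.71 ± 0.35 and Tapbp at -0.46 ± 0.37. The male 2 W pool, which stood apart in Mbp, was the lower for each, as for Tap2 at 30.1 and 13.04 FPKM. From 3 D to 2 W 0 members were called (0.00468% of all genes). B2m was the 1 member at an unadjusted p under 0.05 in edgeR, where 1176 of 21368 genes passed. DESeq2 called 0 members, and 358 of 20055 genes in all.

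At 3 D after crush the male pool was the higher for class II in the UON too. H2-Ab1 was at 28.8 and 198 FPKM at 3 D, against 56.97 and 65.8 in naïve UON, and Cd74 at 43.8 and 282 against 93.7 and 129. The female pool lay below and the male pool above both naïve pools, and Ccr2 was at 0.65 and 12.1 FPKM in them. The fitted changes were 0.43 ± 0.67 for H2-Ab1 and 0.12 ± 0.61 for Cd74. At 2 W the UON pools were at 74.7 and 74.2 FPKM for H2-Ab1, 104 and 113 for Cd74 and 47.5 and 105 for H2-Aa.

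**Figure D3:**
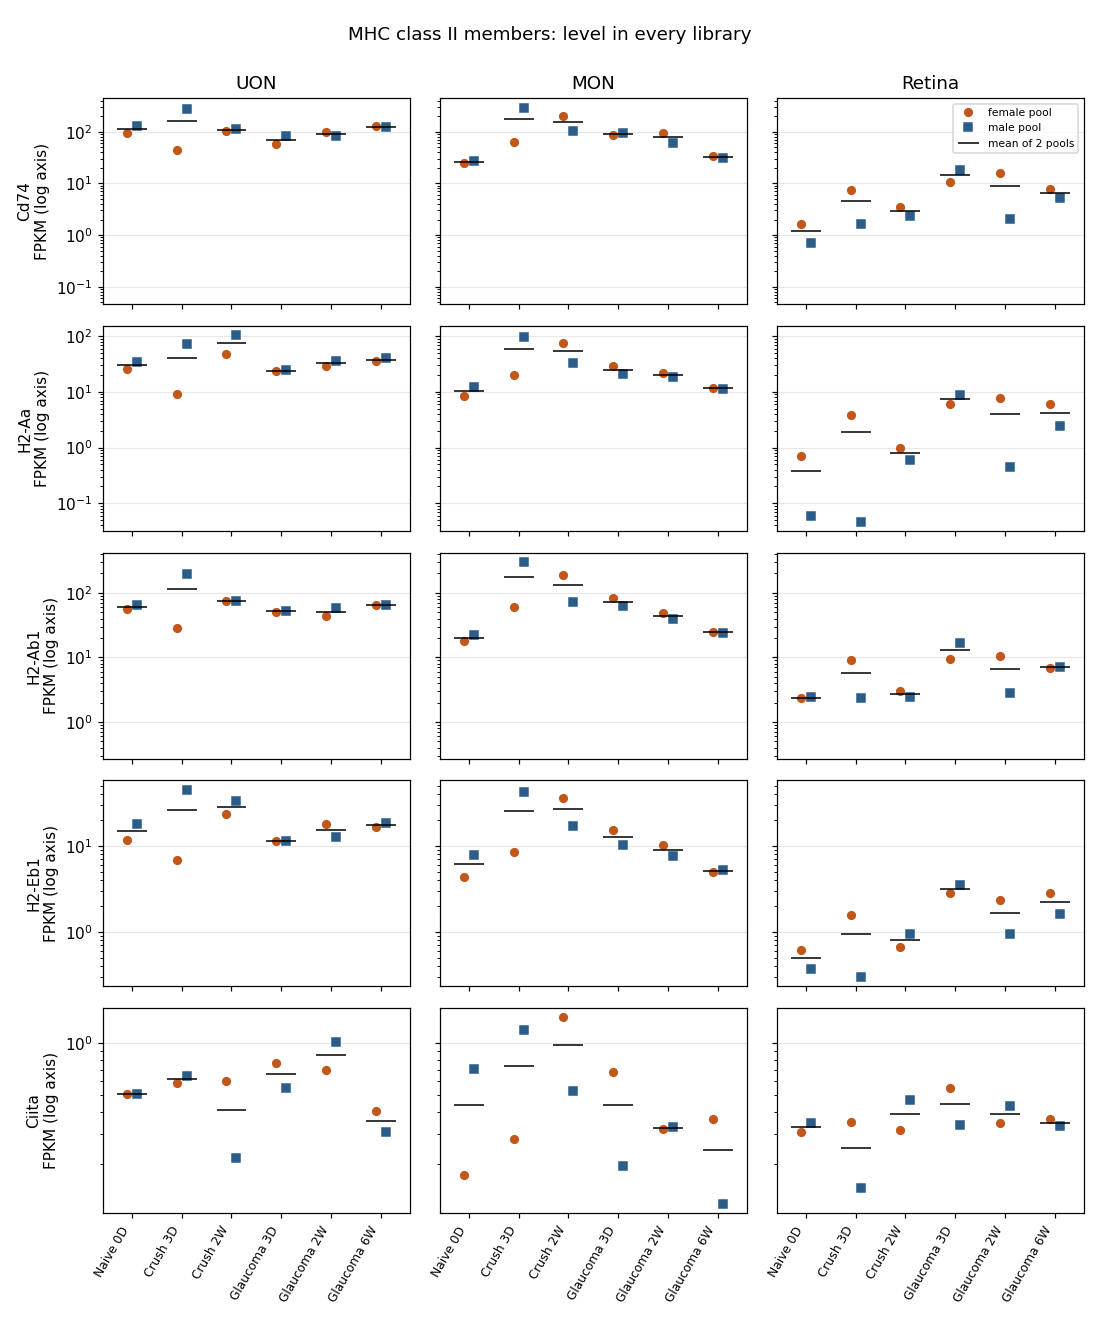
FPKM of the class II members on a log axis in every library, by tissue and group, with female pools as circles, male pools as squares and the mean of 2 pools as a line. At 3 D after crush the pools part in both nerve regions, as for H2-Ab1 at 60.1 and 296 in the MON and 28.8 and 198 in the UON.

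In the retina after crush, B2m was at 72.0 and 35.1 FPKM at 3 D and 72.6 and 72.9 at 2 W, against 28.1 and 29.3 in naïve retina. H2-K1 was at 42.4 and 25.4 FPKM at 3 D and 38.5 and 35.4 at 2 W, against 20.9 and 17.6. All crush pools lay above the naïve pools for both genes. Of the 10 members 0 were called at 3 D (0.0221% of all genes) and 0 at 2 W (0.313%). At an unadjusted p under 0.05 in edgeR there were 3 and 4 members, where 1437 and 2037 of 22671 genes passed. DESeq2 called 0 members at 3 D and B2m at 2 W, where it called 135 of 21332 and 346 of 22878 genes. The edgeR value of B2m at 2 W was 1.33 ± 0.27 (adjusted p = 0.156), and without the male naïve pool it was 1.64. From 3 D to 2 W 0 members were called (0.0485% of all genes), with 0 at an unadjusted p under 0.05 and 0 by DESeq2. Over all genes 1445 of 22671 passed the unadjusted limit in edgeR, and DESeq2 called 161 of 20558.

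In the glaucoma model the MON class II genes were higher at 3 D and near naïve by 6 W. H2-Ab1 was at 84.5 and 62.2 FPKM at 3 D, 49.4 and 39.3 at 2 W and 25.1 and 23.8 at 6 W, against 17.7 and 22.5 in naïve MON. Cd74 was at 88.6 and 96.7 FPKM at 3 D, 95.6 and 61.6 at 2 W and 34.8 and 31.2 at 6 W, against 24.8 and 26.9. For both genes the pools of each time lay above both naïve pools, which with 2 pools per group is only a description.

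Of the 10 members 0 were called in the MON at 3 D, 2 W or 6 W by edgeR, as were 0% of all genes. At an unadjusted p under 0.05 in edgeR there were 3, 5 and 0 members, where 1854, 2017 and 1127 of 22960 genes passed. DESeq2 called 0 members at 6 W, and 67 of 27150 genes in all. The log2 fold changes at 3 D were 1.83 ± 0.23 for H2-Ab1, 1.84 ± 0.24 for Cd74 and 1.22 ± 0.28 for H2-Aa, with edgeR adjusted p from 0.261 to 0.358. DESeq2 called these 3, and 443 of 19299 genes in all. At 2 W Tap1 was at 14.4 and 16.0 FPKM against 5.62 and 3.08 in naïve MON (1.56 ± 0.26, edgeR adjusted p = 0.236). DESeq2 called Tap1, Cd74 and H2-Ab1 at 2 W, and 511 of 19299 genes in all. From 3 D to 6 W H2-Ab1 went by -1.53 ± 0.23 and Cd74 by -1.48 ± 0.24. In that comparison 0 members were called by edgeR (0% of all genes). At an unadjusted p under 0.05 in edgeR 4 were lower, where 1138 of 22960 genes passed in either direction. DESeq2 called H2-Ab1 and Cd74 lower there, and 185 of 21656 genes in either direction. Monocyte and neutrophil markers summed to 228 and 59.5 FPKM at 3 D, against 18.03 and 31.3 in naïve MON, and their part was not tested.

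In the UON in glaucoma edgeR called 0 of 10 members at 3 D, 2 W or 6 W, and 0% of all genes. At an unadjusted p under 0.05 in edgeR there were 1, 0 and 0 members, where 868, 801 and 451 of 22438 genes passed. DESeq2 also called 0 members, and 129 of 21231, 76 of 25079 and 33 of 22000 genes at these times. Cd74 was at 57.1 and 82.1 FPKM at 3 D, 98.8 and 84.5 at 2 W and 128 and 124 at 6 W, against 93.7 and 129 in naïve UON. Its 3 D pools lay below both naïve pools (-0.73 ± 0.25), and that was the 1 member at an unadjusted p under 0.05. From 3 D to 6 W 0 members were called by edgeR (0% of all genes) and 0 by DESeq2, which called 134 of 20461 genes in all. At an unadjusted p under 0.05 in edgeR there were 3 members, where 1018 of 22438 genes passed.

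Of the 15 injury comparisons, the retina at 3 D of glaucoma had the largest fitted changes of H2-Aa, Cd74 and H2-Eb1, from low naïve levels. H2-Eb1 was at 0.615 and 0.369 FPKM in naïve retina and at 2.80 and 3.52 at 3 D, 2.35 and 0.955 at 2 W and 2.86 and 1.63 at 6 W. H2-Aa was at 0.709 and 0.058 FPKM in naïve retina and at 6.17 and 8.68 at 3 D, 7.71 and 0.447 at 2 W and 5.97 and 2.42 at 6 W. Cd74 was at 1.64 and 0.709 FPKM in naïve retina and at 10.8 and 18.4 at 3 D, 15.6 and 2.08 at 2 W and 7.90 and 5.13 at 6 W. The 3 D and 6 W pools lay above both naïve pools in each, while the male 2 W pool of H2-Aa lay between them.

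At 3 D the retinal log2 fold changes were 4.65 ± 1.04 for H2-Aa, 4.02 ± 0.83 for Cd74, 3.66 ± 0.61 for H2-Eb1 and 2.46 ± 0.61 for H2-Ab1, with B2m at 1.46 ± 0.40. Leaving out 1 retinal pool moved Cd74 to between 2.52 (without the male 3 D pool) and 5.06 (without the female one), H2-Ab1 to between 1.61 and 3.05 and B2m to between 0.92 and 1.87, for the same pools. The class II median was 3.66 against 0.96 for class I and -0.0042 for all genes. None of the 10 members was called by edgeR at 3 D (0.00429% of all genes), 2 W (0%) or 6 W (0.00858%), and 6, 3 and 7 were higher at an unadjusted p under 0.05. At that limit 1418, 1465 and 1321 of 23301 genes passed in edgeR in either direction. DESeq2 called 6 at 3 D, 0 at 2 W, and H2-Aa and H2-Eb1 at 6 W. Over all genes it called 160 of 23934, 99 of 22418 and 114 of 21660 at these times. From 3 D to 6 W 0 members were called (0.0129% of all genes), with 0 at an unadjusted p under 0.05 and 0 by DESeq2. In that comparison 1864 of 23301 genes passed the unadjusted limit in edgeR, and DESeq2 called 92 of 16355. Monocyte and neutrophil markers summed to 12.2 and 12.8 FPKM at 3 D against 8.39 and 6.86 in naïve retina, and microglial markers to 106 and 154 against 49.98 and 45.5, and their part was not tested.

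**Figure D4:**
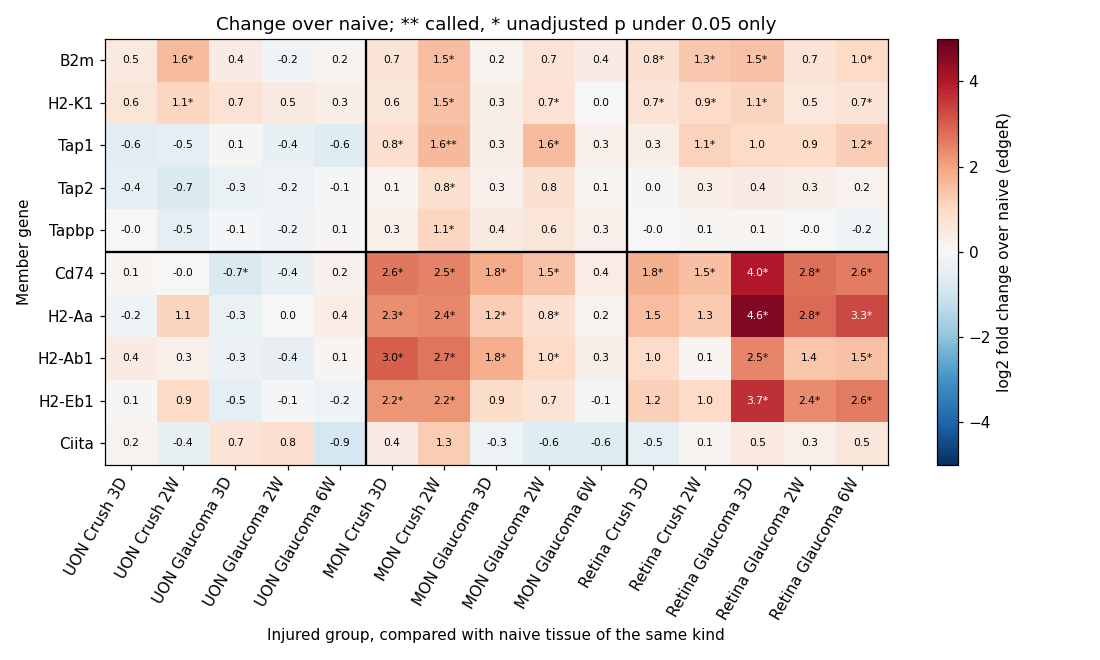
Fitted log2 fold change over naïve tissue for the 10 members (rows) in the 15 injury comparisons (columns), blue lower and red higher, with ** for a call and * for an unadjusted p under 0.05 only. The single call is Tap1 in the MON at 2 W after crush (1.62), and the class II rows are reddest in the MON after crush (2.99 for H2-Ab1 at 3 D) and the retina in glaucoma (4.65 for H2-Aa at 3 D).

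The 15 comparisons share the naïve pools of each tissue as controls, so they are not independent. Crush was also set against glaucoma directly. In the UON 0 members were called at 3 D (0% of all genes) and at 2 W (0.0418%), in the MON 0 at 3 D (0.0162%) and 2 W (0.0485%), and in the retina 0 at 3 D (0.0081%) and 2 W (0.113%). The members at an unadjusted p under 0.05 in edgeR were 0 and 1 in the UON, 0 and 4 in the MON, and 4 and 0 in the retina. Over all genes 255 and 2451 of 23927 passed that limit in the UON and 2562 and 1857 of 24738 in the MON. In the retina 1072 and 2005 of 24693 did. DESeq2 called only B2m, in the UON at 2 W. Of all genes it called 12 of 42006 in the UON at 3 D. It called 573 of 17134 and 368 of 20464 in the MON, and 36 of 17861 and 182 of 22827 in the retina. B2m in the UON at 2 W was 1.75 ± 0.42 higher in crush, and H2-Ab1 in the MON at 2 W 1.54 ± 0.63 higher. In the retina at 3 D the 4 members at an unadjusted p under 0.05 in edgeR were class II genes with lower values in crush, such as H2-Eb1 at -2.46 ± 0.71. Without the female crush pool, H2-Ab1 in the MON at 3 D was 2.15 higher in crush.

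Whether the response to injury differed between tissues was tested as an interaction, and 0 of 10 members were called by edgeR in any of 15 tests. For crush at 3 D the percent of all genes called was 0.0328 (MON less UON), 0.106 (MON less retina) and 0.0182 (UON less retina), with 2, 0 and 0 members at an unadjusted p under 0.05. For crush at 2 W it was 0.0146, 0.0802 and 0.0656, with 4, 1 and 2 members. For glaucoma it was 0.00349 in 3 tests at 3 D, 0, 0.00349 and 0 at 2 W, and 0 at 6 W. At 2 W after crush Tap1 went 2.08 ± 0.45 further in the MON than in the UON (edgeR adjusted p = 0.11), Tapbp 1.48 ± 0.39 and Tap2 1.43 ± 0.38, and DESeq2 called these 3. At 3 D of glaucoma Cd74 differed by -4.78 ± 0.84 and H2-Eb1 by -4.16 ± 0.73 between the UON and the retina (edgeR adjusted p = 0.216 for both), and DESeq2 called these, H2-Aa and H2-Ab1. In the other tests DESeq2 called Tap1 for crush at 2 W (UON less retina) and glaucoma at 2 W (MON less UON), and Cd74 for glaucoma at 2 W (UON less retina). Without the female UON 2 W pool Tapbp was at 2.01 and Tap2 at 1.93 for crush at 2 W (MON less UON). That fit keeps only the male UON 2 W pool, which stood apart in Mbp and was the lower for both genes. Without the female retinal 3 D pool H2-Aa was at -6.30, H2-Eb1 at -4.94 and Cd74 at -5.84 for glaucoma at 3 D (UON less retina). Over the glaucoma tests 2, 3 and 4 members were at an unadjusted p under 0.05 at 3 D, 4, 1 and 5 at 2 W, and 0, 3 and 5 at 6 W. Over all genes, 2390, 2548 and 1024 of 27445 passed that limit in edgeR for crush at 3 D, and 3515, 2044 and 2321 at 2 W. For glaucoma, of 28624 genes 1954, 1167 and 1274 passed at 3 D. At 2 W 1945, 1306 and 1056 passed, and at 6 W 1121, 1501 and 1036.

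Between the sexes, over 12 libraries of a tissue, 0 members were called by edgeR in the UON (0.0251% of all genes), the MON (0.0404%) or the retina (0.0324%), with 3, 1 and 3 at an unadjusted p under 0.05. Over all genes 787 of 23927, 556 of 24738 and 786 of 24693 passed that limit in edgeR. DESeq2 called 43 of 23275 genes in the UON and 34 of 23794 in the MON. In the retina H2-Aa was at -1.94 ± 0.65 in male against female pools, and DESeq2 called it there and no other member in any tissue.

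Among the genes most like the class I mean over 36 libraries, by Pearson's r of deviations from the tissue mean in log2 CPM, were Irf8 (0.821), Psmb9 (0.819), H2-D1 (0.819) and Lgals3bp (0.814). The class II mean was here that of Cd74, H2-Aa, H2-Ab1 and H2-Eb1, without Ciita. Most like it were Emp3 (0.831), Wfdc17 (0.827), Lyz2 (0.827), Rnase4 (0.813) and Cyba (0.802). Within the UON the r of these named genes ran from 0.3665 for Lgals3bp to 0.7825 for H2-D1. There the class I members themselves ran from 0.0352 for Tapbp to 0.6398 for B2m with their own class mean. These are descriptions over libraries that share mice and depth. The r of Ciita with the class II mean was 0.322 over all libraries, -0.418 within the UON, 0.616 within the MON and 0.536 within the retina.

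By transcript, Cd74 was read mainly from 2 models in each tissue. Cd74-201, with 8 exons and 645 coding bases, took 74.8% of its transcript counts in the UON, 69.3% in the MON and 72.0% in the retina. Cd74-202, with 9 exons and 837 coding bases, took 24.9%, 30.4% and 25.5%. Tap1-206, the main coding model of Tap1, took 91.8% in the UON and 86.2% in the MON but 31.8% in the retina. There the retained-intron models Tap1-202, Tap1-204 and Tap1-205 took 18.01%, 23.04% and 18.4% of few counts. This was not confined to the retina. In single MON libraries the share of Tap1-206 ran from 4.17% to 93.2%, and that of Tap1-204 reached 90.0%. In single UON libraries Tap1-206 took 86.8% to 96.9%. The bearing of this on the Tap1 calls was not tested. Ciita counts were spread thinly over models, with Ciita-201 at 717 counts over the 12 UON libraries, too few to compare its start sites.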

How the data were processed

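RNA-seq was analysed in 36 libraries of mouse UON, MON and retina. The authors pooled RNA in equal amounts by sex, aligned reads to GRCm38 with HISAT2 2.2.1 and assembled them with StringTie 1.3.0 on Gencode M25. The deposited gene and transcript tables hold estimated counts from StringTie, not normalized, which were used as whole numbers. The deposited FPKM and TPM per gene are the authors' StringTie values, and 15 FPKM values just below 0 were set to 0. Strand of counting is not given in the sources used here. Groups were taken from the labels. FPKM were used for levels and counts for tests.

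Tests used edgeR 4.0.16 in R 4.3.3 with TMM normalization, filterByExpr (minimum count 10, minimum total 15), the quasi-likelihood F test with sex as a term, and Benjamini-Hochberg adjustment over all genes tested. Naïve libraries were fitted together (6 libraries), and each tissue and model with its naïve libraries (6 or 8). Crush against glaucoma and the sexes used 12 libraries, and differences between tissues 18 or 24. The sex term pairs pools of the same mice in the naïve fit only, and the differences between tissues were not paired by mouse. Standard errors were derived from the F statistic. log2 CPM for likeness used a prior count of 2 and genes with a mean of at least 1 CPM. DESeq2 1.42.0, RLE normalization, no count filter, no sex term, wider fits, and leaving out each library were the alternatives. On simulated data for naïve UON over MON, edgeR recovered 74% of genes changed by 2 and 8% of those changed by 1 on the log2 scale, among 16209 genes. For MON crush at 3 D it recovered 62% and 8%, among 14769 genes. The simulation kept only well-counted genes and used a smaller spread between libraries than the naïve fit (biological coefficient of variation 0.507). These shares can therefore overstate recovery in the data.

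All 10 members are described throughout. From each other list the called genes are counted and up to 3 with the largest change named. Of the 5 genes most like each class mean, 1 is not reported here. Members and lists were chosen with earlier results of these data known. RefSeq promoters and Gencode vM21 models are on the authors' build.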

Additional observations from a re-analysis of the deposited data

How the results depend on the processing

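Counts of members called depended on the test. DESeq2 in place of edgeR called 7 in place of 4 for naïve UON over MON, and 4 in place of 1 for MON crush at 2 W. It also called more of all genes, at 3675 of 22181 for naïve UON over MON against 2281 of 23685 in edgeR. For MON crush at 2 W it called 1726 of 19336 genes against 544 of 19988. In the MON at 3 D and 2 W of glaucoma it called 443 and 511 of 19299 genes, where edgeR called 0 of 22960. Where edgeR called 0, DESeq2 called 1 for UON crush 2 W, retina crush 2 W, UON crush over glaucoma at 2 W, the sexes in retina, and the differences of UON less retina at crush 2 W and glaucoma 2 W and of MON less UON at glaucoma 2 W. It called 2 for MON glaucoma 6 W over 3 D and retina glaucoma 6 W, and 3 for MON glaucoma 3 D and 2 W. For the crush 2 W difference of MON less UON it called 3, for the glaucoma 3 D difference of UON less retina 4, and for retina glaucoma 3 D 6. Over all genes it called 538 of 20832 for UON crush over glaucoma at 2 W and 23 of 22827 for the sexes in retina. For the crush 2 W differences it called 1406 of 21456 genes (MON less UON) and 449 of 20546 (UON less retina). For the glaucoma differences it called 89 of 27231 genes at 3 D (UON less retina). At 2 W it called 220 of 22628 (MON less UON) and 66 of 21707 (UON less retina). Without a count filter the members called were 4 for MON crush 3 D, 7 for MON crush 2 W and 1 for retina crush 2 W. They were 2 for MON glaucoma 3 D and for 2 W, and 1 for MON glaucoma 6 W over 3 D. They were 1 for UON crush over glaucoma at 2 W and 3 for the glaucoma 3 D difference of UON less retina. Over all genes that setting called 2110 of 38991 for MON crush 3 D and 1481 of 38991 for MON crush 2 W. For MON glaucoma 3 D and 2 W it called 58 and 64 of 40498 genes. Without the sex term the members called were 2 and 4 for MON crush 3 D and 2 W, and with 12 libraries in 1 fit 3 and 5. Over all genes the calls were 1352 and 951 of 19988 without the sex term. With 12 libraries in 1 fit they were 1480 and 1050 of 24738. With all 36 libraries in 1 fit, naïve UON over MON had 2, H2-Ab1 (edgeR adjusted p = 0.223) and Cd74 (0.143) being lost. The causes were not tested. RLE normalization moved no count by over 1.5 times.

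Leaving out 1 library at a time gave 2 to 5 members for naïve UON over MON, 0 to 4 for MON crush 3 D, 0 to 7 for MON crush 2 W, 0 to 2 for MON crush 2 W over 3 D, 0 to 1 for retina crush 2 W, 0 to 3 for MON crush over glaucoma at 3 D, 0 to 2 for the crush 2 W difference of MON less UON and 0 to 3 for the glaucoma 3 D difference of UON less retina. A lone pool left in a group was assumed to vary like the other groups. How many of all genes were called in these fits is not reported here, so the ranges say nothing about the members in particular. No value reversed among the calls. The 2 pools per group limit every test, and Ciita, at most 1.41 FPKM in any library, is also limited by its few reads.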
